A study of Mus musculus with 2 samples.

Results

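Lysosomes are acidic compartments in which macrophages break down what they have engulfed. The vacuolar proton pump acidifies them: its V1 sector on the cytosolic face burns ATP, and its V0 sector in the membrane carries the protons. Inside, cathepsins cut proteins and other hydrolases cut glycans and lipids, and the factors Tfeb and Tfe3 bind an E-box element in the promoters of many of these genes. The genes described here are all symbols that begin with Atp6v0 or Atp6v1 (23 symbols) and 25 listed genes for pump accessory proteins, cathepsins and related enzymes, hydrolases, membrane proteins and both factors. They make up 48 of the 34714 genes in the table. Ctsk was left out by the choice of members. The rule uses names and no measured value, though it was set with earlier results of these data known.

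The series holds 2 RNA-seq libraries of C57BL/6 mouse bone marrow-derived macrophages, grown from marrow with macrophage colony-stimulating factor. The cells received the anti-CD40 monoclonal antibody FGK45 or IgG (Ctrl) for 24 h, with 1 library for each. FGK45 is given to activate CD40, a surface receptor that T cells engage through CD40 ligand. The labels do not say how many mice gave marrow or whether cultures were pooled. With 1 library per group no difference has a replicate check, no test was run, and "higher" and "lower" compare these libraries only.

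All 10 macrophage markers in a fixed list were at 1 FPKM or more. FPKM is a level per length of transcript that is also scaled to library size. The summed levels of these markers were 15516 FPKM in the anti-CD40 library against 13154 in the IgG library. Lyz2 alone gave 13423 and 11326 FPKM of these sums. Marker lists of dendritic cells, B cells, fibroblasts and mast cells had 0 genes at 1 FPKM. The summed levels were 1.90 and 1.253 FPKM for neutrophil markers, 4.22 and 3.24 for T and NK cell markers, and 1.24 and 3.13 for erythroid markers. Each of these sums rests mainly on 1 gene, S100a8 (1.82 and 1.11 FPKM), Cd4 (3.94 and 3.04) and Hba-a1 (1.18 and 2.91), while Cd3d, Cd3e, Cd3g, Cd8a, Ncr1, Ly6g, S100a9 and Mpo were listed at 0 in both libraries. In bulk RNA, fewer cells of a type and less RNA per cell cannot be told apart.

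Of the 48 genes, 41 reached 1 FPKM, and all 41 did so in both libraries. Differences are given as the ratio of FPKM values (fold) and as the log2 ratio of (FPKM + 1), anti-CD40 over IgG, minus the median of that ratio over all 9591 genes that reached 1 FPKM in at least one of them. That median was 0.12, and its subtraction gives the relative log2 ratio. Genes were counted as higher or lower where the relative log2 ratio was at least 0.32 from 0, that is at least 25% higher or 20% lower. Counting intervals beside folds are exact conditional binomial intervals at 95%, computed from fragment numbers that are themselves approximate. They hold counting error and no spread between cultures.

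The lysosomal genes did not move as a block. By that threshold 6 were higher, 6 were lower and 29 lay between, whereas 7.49% of all genes tested were higher and 13.9% were lower. As shares of the 41 these are 14.6% each way. Their median relative log2 ratio was 0.09, against 0 for all genes tested by construction, and 22 of 41 lay above 0. Before the median shift was subtracted, 14 passed the same threshold as higher and 3 as lower, beside 18.3% and 8.26% of all genes, so that split depends on the scaling. The 48 genes took 6.176% of the summed FPKM with anti-CD40 and 6.179% with IgG. At 1.5-fold, 0 genes were higher, against 1.23% of all genes, and 1 was lower, Atp6v0a1, against 4.23%.

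**Figure D1:**
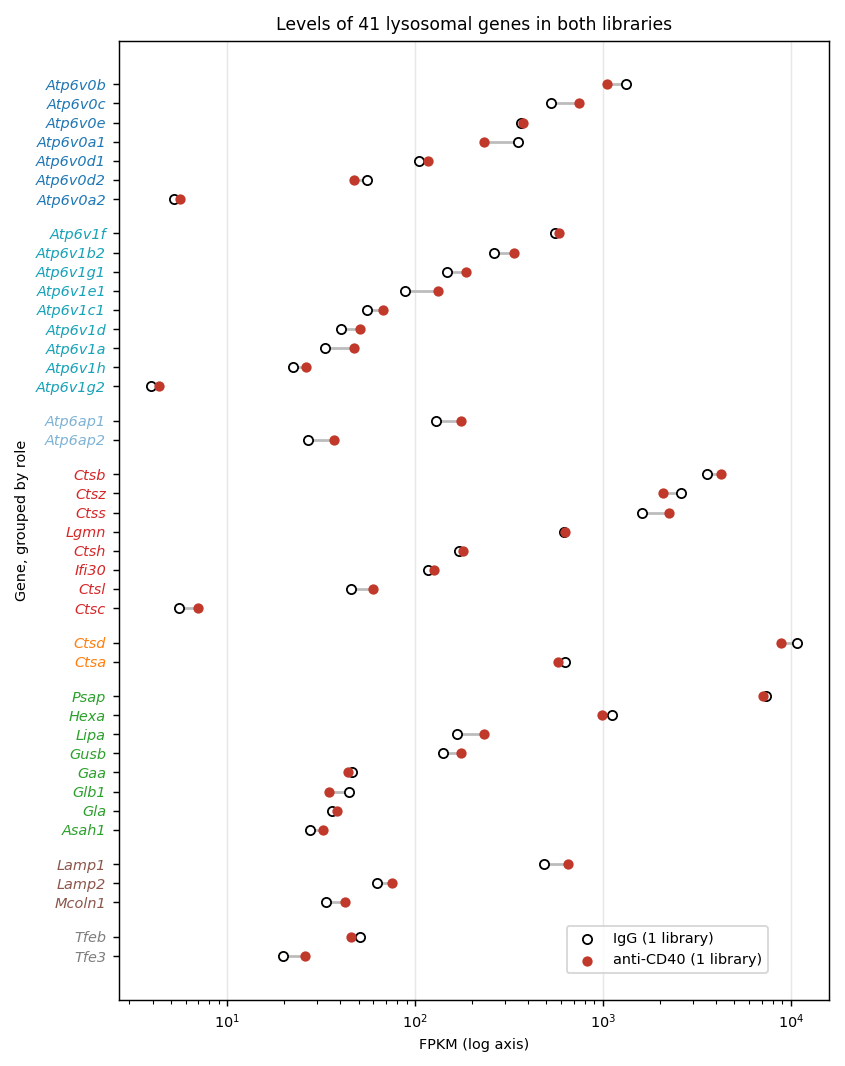
FPKM (log axis) of the 41 genes at 1 FPKM or more, with 1 filled point for the anti-CD40 library and 1 open point for the IgG library, grouped by role. Levels run from 4.31 FPKM (Atp6v1g2) to 8851 FPKM (Ctsd) with anti-CD40, and the gap within a gene is small beside the spread between genes.

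The rule used no promoter sequence, but the E-box element of Tfeb and Tfe3 is already known from promoters of many of these genes. A higher share among them is therefore no independent result. The element bound by Tfeb and Tfe3 is an E-box with the core CACGTG, in its extended form TCACGTGA. Both read the same on either strand, and every extended match is also a core match. The window of 250 bases before to 50 after the start was in the RefSeq table (GRCm38.p6) for 32 of the 41 genes. The core stood in 14 of these 32 genes (43.8%) and in 987 of the 7864 tested genes with a window (12.6%). The extended form stood in 8 of 32 (25%) and in 198 of 7864 (2.52%). Over all 27025 genes of the promoter table the shares were 8.09% and 1.12%. These are matches of letters, not measured binding. All extended matches are shown with their flanks, since the extended form is the rarer of both in other promoters. The 30 bases are 5′ to 3′ on the gene's strand, and the capitals mark the 8 matched bases:
Mcoln1 (chr8:3500462-3500491, plus strand): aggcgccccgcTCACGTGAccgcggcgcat
Ctsd (chr7:142387908-142387937, minus strand): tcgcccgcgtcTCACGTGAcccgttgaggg
Ctsa, first match (chr2:164833749-164833778, plus strand): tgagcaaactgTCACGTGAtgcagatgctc
Ctsa, second match (chr2:164833766-164833795, plus strand): gatgcagatgcTCACGTGAccagagctaca
Gla, nearer match (chrX:134601182-134601211, minus strand): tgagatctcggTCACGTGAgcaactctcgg
Gla, farther match (chrX:134601215-134601244, minus strand): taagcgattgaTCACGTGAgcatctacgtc
Ifi30 (chr8:70766842-70766871, minus strand): atccaaaaactTCACGTGAccagacatgct
Atp6v1a (chr16:44139373-44139402, minus strand): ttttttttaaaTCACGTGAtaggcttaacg
Atp6v0d1 (chr8:105566050-105566079, minus strand): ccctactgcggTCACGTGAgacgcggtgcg
Atp6v0e (chr17:26676387-26676416, plus strand): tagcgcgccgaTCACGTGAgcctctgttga

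Lamp1 carried 4 core matches within 91 bases before its start, more than any other of these genes, and Atp6v0b carried 2 within 62 bases. Their stretches are shown with the cores in capitals:
Lamp1 (chr8:13159070-13159160, plus strand): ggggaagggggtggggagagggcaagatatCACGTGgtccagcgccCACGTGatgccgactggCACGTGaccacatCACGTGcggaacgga
Atp6v0b (chr4:117887334-117887395, minus strand): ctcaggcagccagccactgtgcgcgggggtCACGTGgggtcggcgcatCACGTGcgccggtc

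Genes with the element lay on both sides of the median ratio. The 8 genes with the extended form had a median relative log2 ratio of -0.03, from -0.41 (Ctsd) to 0.37 (Atp6v1a). The 6 genes with only the core had a median of -0.15, with Lamp1 at 0.31 and Glb1 at -0.47 as the ends. The 18 genes with a window and no match had a median of 0.18, from -0.73 (Atp6v0a1) to 0.44 (Atp6v1e1).

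The factors themselves differed in direction. Tfeb had 45.7 FPKM in the anti-CD40 library against 51.1 in the IgG library, 0.895-fold (counting interval 0.843 to 0.95). Tfe3 had 26.04 against 19.8 FPKM, 1.31-fold (counting interval 1.22 to 1.42). Their relative log2 ratios were -0.28 and 0.26, both short of the threshold, and their summed levels were 71.7 and 70.9 FPKM. Tfeb was thus the more abundant of the pair per length in both libraries, by a smaller margin with anti-CD40.

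The membrane sector of the pump ranged from -0.73 to 0.38 in relative log2 ratio, the widest range of any role. Atp6v0a1 encodes a form of the large subunit a, which lines the proton path (chromosome 11, 101009422 to 101063719). It stood at 232 FPKM in the anti-CD40 library against 354 in the IgG library, 1.53-fold lower (counting interval 1.5 to 1.56). Its relative log2 ratio of -0.73 was the lowest of the 41. Tcirg1 encodes the a3 form of the same subunit, the form known from osteoclasts and macrophage lysosomes, but its symbol does not carry the pump prefix, so it is no member. It had 756 against 1154 FPKM, also 0.655-fold, with a relative log2 ratio of -0.73. Atp6v0a2 was low and near the median ratio, at 5.62 against 5.17 FPKM, and Atp6v0a4 was listed at 0 with anti-CD40 and 0.00389 with IgG. Of the summed level of the 4 subunit a genes, Tcirg1 made up 76.1% with anti-CD40 and 76.3% with IgG, and Atp6v0a1 23.3% and 23.4%. Their sum was 993 against 1514 FPKM, 0.656-fold, while the division among the genes differed by less than 1 percentage point.

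The proteolipids, small subunits that form the proton-carrying ring, went opposite ways. Atp6v0c (chromosome 17, 24163865 to 24169678) had 745 FPKM in the anti-CD40 library against 526 in the IgG library, 1.42-fold (counting interval 1.38 to 1.45). Atp6v0b (chromosome 4, 117884330 to 117887333) had 1050 against 1321 FPKM, 0.795-fold (counting interval 0.781 to 0.81). Atp6v0b was the more abundant of both in either library, and the gap between them was narrower with anti-CD40.

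Subunit d couples V0 to the stalk of the pump and has a widely used form and a form known from osteoclasts. Atp6v0d1, the widely used form, had 117 against 105 FPKM, with a relative log2 ratio of 0.03. Atp6v0d2, the osteoclast form, had 47.0 against 55.7 FPKM, 0.844-fold (counting interval 0.798 to 0.892). Its share of the summed subunit d level was 28.7% with anti-CD40 and 34.7% with IgG. Of 9 osteoclast markers, 5 were at 1 FPKM or more. By the same threshold 3 of these were lower (60%, beside 13.9% of all genes tested) and 0 were higher (beside 7.49%). Acp5, the acid phosphatase of resorbing cells, had 7.07 against 8.77 FPKM (counting interval of the fold 0.662 to 0.982). The integrin gene Itgb3 had 9.35 against 11.3. The third, the fusion gene Dcstamp, is named to complete the count, with 2.02 against 3.33 FPKM. The remaining 2 lay within the threshold, Nfatc1 with 8.88 against 8.30 FPKM and Ctsk with a relative log2 ratio of 0.14. Calcr was listed at 0 in both libraries, and the summed level of the list was 73.6 against 70.0 FPKM, to which Ctsk gave 46.0 and 38.1. Their part in the Atp6v0d2 difference was not tested. Atp6v0e had 373 against 366 FPKM, and Atp6v0e2 was listed at 0 with IgG and at 0.141 FPKM with anti-CD40.

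The V1 sector lay higher than V0. Of its 9 genes at 1 FPKM or more, 2 were higher by the threshold, 0 were lower and 7 lay above the median ratio. The median relative log2 ratio was 0.20, against -0.09 for the 7 V0 genes, of which 1 was higher and 3 were lower. As shares, 22.2% of V1 genes were higher and 0% lower, and 14.3% and 42.9% of V0 genes. Over all genes tested the shares were 7.49% and 13.9%. Atp6v1e1, a subunit of the peripheral stalk (chromosome 6, 120795244 to 120822698), had 132 FPKM in the anti-CD40 library against 88.9 in the IgG library. Its fold of 1.48 (counting interval 1.4 to 1.56) was the largest of the 41 genes. Atp6v1a, the catalytic subunit A (chromosome 16, 44085402 to 44139702), had 47.1 against 33.2 FPKM, 1.42-fold (counting interval 1.35 to 1.49). Atp6v1b2, the other subunit of the ATP-binding head, had 335 against 263 FPKM, 1.27-fold (counting interval 1.245 to 1.301).

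The remaining V1 genes were closer to the median. Stalk subunits Atp6v1g1 and Atp6v1d had 186 against 149 and 50.9 against 40.4 FPKM, both with a relative log2 ratio of 0.20. Atp6v1c1, which joins the sectors, had 67.6 against 55.2 FPKM, and Atp6v1h, a regulatory subunit, 26.2 against 22.5. Atp6v1f had 583 against 554 FPKM and Atp6v1g2 4.31 against 3.93, with relative log2 ratios of -0.05 and -0.01. Atp6v1g2 shares 144 exon bases with Nfkbil1 on the other strand, so its low value is uncertain without strand. Summed over the members of each sector, V1 genes came to 1431 against 1209 FPKM (1.18-fold) and V0 genes to 2570 against 2733 (0.94-fold). The V0 sum, like the V0 median and counts, leaves out the subunit a gene Tcirg1 (756 against 1154 FPKM). It is thus not that of the whole sector.

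The forms known from other organs were near 0. Atp6v1b1 and Atp6v1c2 were listed at 0 with anti-CD40 and at 0.0115 and 0.0393 FPKM with IgG. Atp6v1e2 and Atp6v1g3 were listed at 0 in both libraries. Atp6v1fnb, which carries the pump prefix but is named as a neighbour of Atp6v1f, was listed at 0 with IgG and at 0.0541 FPKM with anti-CD40. With Atp6v0a4 and Atp6v0e2, these are the 7 genes below 1 FPKM.

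Both accessory proteins of the pump had similar folds, and 1 of them passed the threshold. Atp6ap1 had 177 against 129 FPKM, 1.37-fold (counting interval 1.32 to 1.42). Atp6ap2, known as the prorenin receptor, had 36.8 against 27.0 FPKM, 1.37-fold (counting interval 1.27 to 1.47). Their relative log2 ratios of 0.33 and 0.31 fall just above and just below the threshold.

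**Figure D2:**
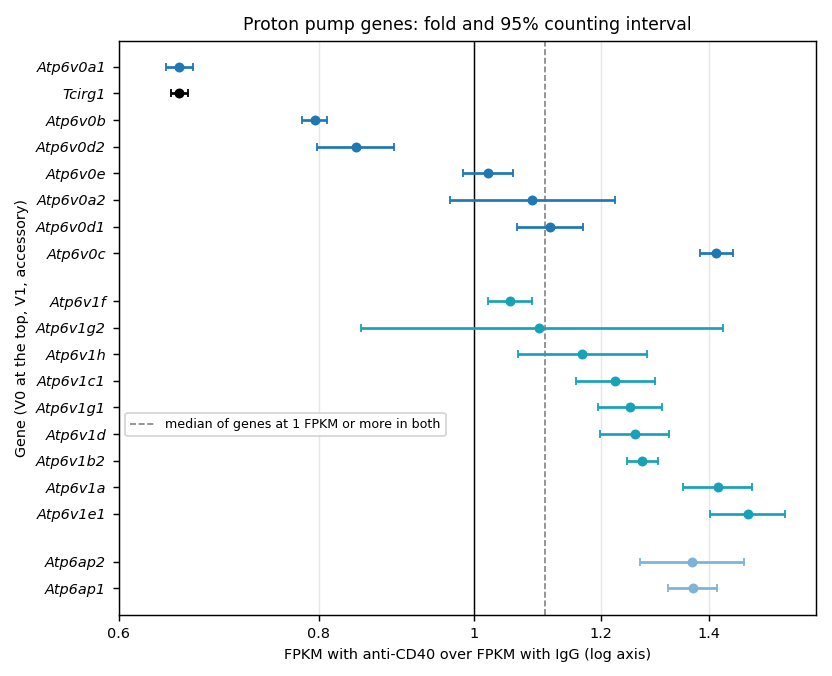
Ratio of FPKM with anti-CD40 to FPKM with IgG (log axis) for the 18 proton pump genes at 1 FPKM or more and Tcirg1 (black), with bars for 95% counting intervals and no replicate error. The solid line marks 1 and the dashed line the median fold of 1.11 over genes that reached 1 FPKM in each library; Atp6v0a1 and Tcirg1 sit together at 0.655, and the V1 genes range from 1.05 (Atp6v1f) to 1.48 (Atp6v1e1).

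Among partners of the pump in a fixed list, 3 of 12 genes at 1 FPKM or more were higher and 1, Tcirg1, was lower. As shares these are 25% and 8.33%, beside 7.49% and 13.9% of all genes tested. Ostm1, the partner of the lysosomal chloride exchanger, had 22.8 against 16.0 FPKM. Rogdi, a subunit of the complex that reassembles the pump, had 16.4 against 10.6. The third, Ncoa7, is named to complete the count and had 1.82 against 0.832 FPKM. It passed the filter at 1 FPKM only through the anti-CD40 library, so the filter itself favours its place among the higher genes.

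Ctsd, Ctsb, Ctss and Ctsz were among the most abundant transcripts of these cells, while Ctsc was at 6.99 FPKM or less. Ctsd, the aspartic cathepsin (chromosome 7, 142375910 to 142387827), ranked 4 among all genes by FPKM in both libraries. It had 8851 FPKM in the anti-CD40 library against 10792 in the IgG library, 1.22-fold lower (counting interval 1.21 to 1.22). Ctsz, a carboxypeptidase of the cysteine class (chromosome 2, 174427494 to 174439039), had 2081 against 2600 FPKM, 0.80-fold (counting interval 0.792 to 0.809). Ctss, the cysteine cathepsin that trims the invariant chain for MHC class II (chromosome 3, 95526786 to 95556405), had 2254 against 1620 FPKM. Its fold was 1.39 (counting interval 1.37 to 1.41). The order of Ctss and Ctsz thus differed between the libraries: Ctsz was the more abundant per length with IgG and Ctss with anti-CD40.

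The other proteases did not reach the threshold. Ctsb, the most abundant cysteine cathepsin here, had 4240 against 3559 FPKM, 1.19-fold, with a relative log2 ratio of 0.13. Ctsl, an endopeptidase, had 59.6 against 45.7 FPKM and Ctsc, which activates granule proteases, 6.99 against 5.53. Ctsh, an aminopeptidase, had 180 against 172 FPKM. Legumain (Lgmn), which cuts after asparagine and processes other cathepsins, had 626 against 619. Ifi30, the lysosomal thiol reductase GILT, had 126 against 117 FPKM, and the serine carboxypeptidase Ctsa, which protects lysosomal galactosidase, 579 against 625. Of the 8 genes grouped as cysteine cathepsins, legumain and Ifi30, 4 lay above the median ratio, and their summed level was 9573 against 8739 FPKM. Ctsd and Ctsa summed to 9430 against 11417 FPKM.

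Ctsd shares 808 of its annotated exon bases (34.4%) with the gene model Gm49369 on the same strand. Ctsl shares 1742 (26.8%) with the gene model Gm47123 on the other strand. Neither gene model has a value in the deposited data. Ctsa shares 495 (10.5%) with Pltp on the other strand. Pltp, the phospholipid transfer protein gene, was itself abundant and lower with anti-CD40, at 672 against 906 FPKM. Of the 41 genes, 8 share exon bases with another gene at 1 FPKM or more, and the strand setting of the counting is not given in the sources used here.

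Inhibitors of cathepsins went both ways. Of 4 such genes at 1 FPKM or more, 1 was higher and 1 lower, or 25% each way, beside 7.49% and 13.9% of all genes tested. Cstb, the cytosolic inhibitor stefin B, had 386 against 225 FPKM, 1.72-fold (counting interval 1.64 to 1.8). Cst3, the secreted inhibitor cystatin C, had 1581 against 2030 FPKM, 0.779-fold (counting interval 0.766 to 0.791).

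Of the 8 genes grouped as enzymes of lipids and glycans with Psap, 1 was higher and 1 lower. That is 12.5% each way, beside 7.49% and 13.9% of all genes tested. Lipa, the acid lipase that frees cholesterol from its esters (chromosome 19, 34492316 to 34527474), had 233 FPKM in the anti-CD40 library against 166 in the IgG library. Its fold was 1.4 (counting interval 1.36 to 1.44). Glb1, the acid beta-galactosidase (chromosome 9, 114401078 to 114474379), had 34.7 against 44.5 FPKM, 1.28-fold lower (counting interval 1.2 to 1.36). The 6 others lay within the threshold. Gusb, the beta-glucuronidase, had 175 against 140 FPKM and Asah1, the acid ceramidase, 32.5 against 27.5. Gla, the alpha-galactosidase, had 38.5 against 36.0 FPKM and Gaa, the glucosidase that digests glycogen, 44.0 against 46.1. Hexa, the alpha chain of hexosaminidase, had 992 against 1122 FPKM, a relative log2 ratio of -0.30. Psap, the precursor of the saposins that present lipids to hydrolases, had 7067 against 7332 FPKM.

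Further hydrolases were taken from a fixed list, in which 1 of 43 genes at 1 FPKM or more was higher and 6 were lower. These are 2.33% and 14.0% of the list, beside the 7.49% and 13.9% of all genes. Among the lower ones, the cathepsin gene Ctsf had 13.5 against 18.4 FPKM. Plbd2 had 43.6 against 56.2 FPKM, and the fucosidase gene Fuca1 104 against 130. Manba, a mannosidase gene, was the higher one with 5.60 against 3.78 FPKM. The median relative log2 ratio of the list was 0.01.

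All 3 membrane proteins lay above the median ratio, none past the threshold. Lamp1, a heavily glycosylated protein of the lysosomal membrane (chromosome 8, 13159161 to 13175338), had 654 FPKM in the anti-CD40 library against 485 in the IgG library, 1.35-fold (counting interval 1.32 to 1.37). Lamp2, which also serves chaperone-mediated autophagy, had 75.5 against 62.9 FPKM. Mcoln1, the calcium channel that feeds back on Tfeb, had 42.4 against 33.6. A fixed list of 32 further genes of the lysosomal membrane and of sorting had 1 gene higher, Nagpa with 21.0 against 14.8 FPKM, and 1 lower, Gga1 with 58.3 against 70.8. These are 3.1% of that list each way, beside 7.49% and 13.9% of all genes tested, and its median relative log2 ratio was 0.02. Among 25 relatives of Tfeb and genes of nutrient sensing at the lysosome, Tfec, a relative of Tfeb found in macrophages, was the higher one with 5.81 against 3.81 FPKM. Lower were Tsc2, a brake on mTORC1, with 10.1 against 15.7 FPKM, and Fnip1, a partner of folliculin, with 4.15 against 5.61. As shares of these 25 genes, 4% were higher and 8% lower, beside the same 7.49% and 13.9%.

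**Figure D3:**
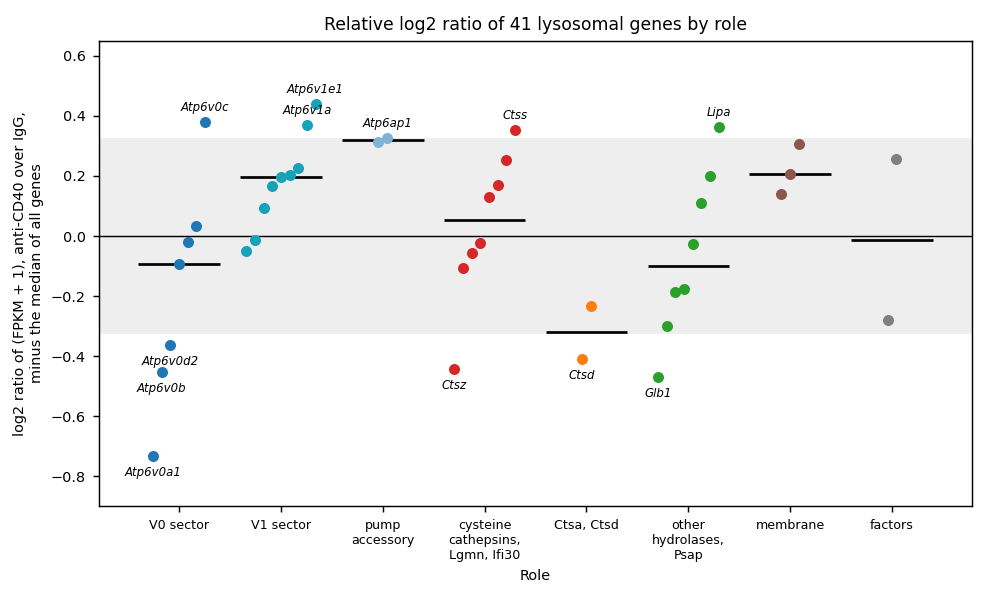
Relative log2 ratio of (FPKM + 1), anti-CD40 over IgG minus the median of all genes, for the 41 genes by role, 1 point per gene. Black bars are medians of the role, the grey band holds ratios within the threshold of 0.32, and the 12 named genes lie outside it, from -0.73 (Atp6v0a1) to 0.44 (Atp6v1e1).

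The ratio was lower for genes with GC-rich transcripts. Over the 41 genes the relative log2 ratio and the median GC content of the transcripts had a Pearson r of -0.44 and a Spearman rho of -0.42, against -0.20 for both over 9321 genes tested. The points share the same 2 libraries, and genes are not independent replicates. Median GC content was 47.5% for the 6 higher genes, 51.2% for the 29 between and 54.4% for the 6 lower ones. V0 genes had a median of 53.0% and V1 genes 48.2%. With the trend on GC content removed, 3 genes were higher and 6 lower, beside 8.19% and 12.3% of all genes with a GC value. Atp6v1a, Ctss, Lipa and Atp6ap1 then stood at 0.32, 0.30, 0.31 and 0.31, short of the threshold by a small margin. Tfe3 passed it at 0.35, and Tfeb, at 61.4% GC, went from -0.28 to -0.14. Atp6v0c (0.46) and Atp6v1e1 (0.41) remained past the threshold. So did the same 6 lower genes, from -0.73 (Atp6v0a1) to -0.33 (Ctsd). Without the subtraction of the median shift, Ctsz, Ctsd and Atp6v0d2 fell short of the threshold, which is 0.322 before rounding, at -0.321, -0.29 and -0.24.

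**Figure D4:**
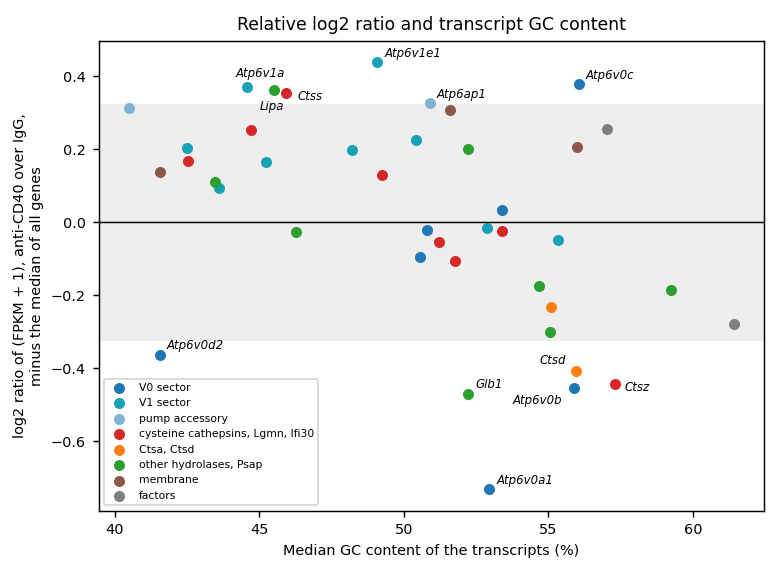
Relative log2 ratio against the median GC content (%) of each gene's transcripts for the 41 genes, coloured by role, with the grey band at the threshold of 0.32. Ctsz, Atp6v0b and Ctsd lie at 55.9 to 57.3% GC and below the band, Atp6v1a, Lipa and Ctss lie at 44.6 to 45.9% and above it, and Atp6v0c (56.0%) and Atp6v0d2 (41.6%) lie against that direction.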

How the data were processed

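The authors deposited 1 table of values per gene and library, read here as FPKM. Its header names no unit: FPKM was inferred from StringTie, which the submitters' processing notes name with HISAT2 2.1.0 and the build mm10, and from the columns, which sum to 529103.5 with anti-CD40 and 547362.0 with IgG. Of annotation, strand setting and filters nothing is given in the sources used here. Columns were assigned by name, with 0 left unused. Positions and promoters come from RefSeq on GRCm38.p6. Each of the 34714 symbols was found among the positions. The promoter table held 27025 genes and covered 7864 of the 9591 genes tested. Protein sequences were not used here.

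The log2 ratio used a pseudocount of 1 and a filter at 1 FPKM in the higher library. It understates differences of low genes, and folds in the text are ratios of FPKM. Depth came from steps in values of single-exon genes: 74.8% of 103 low genes (anti-CD40) and 83.6% of 67 (IgG) were whole multiples of a step within 0.05, against 24.3% and 26.2% with shuffled lengths. Read as 0.5 of an aligned base, the steps give 6.16 and 5.58 gigabases. With fragments of 300 bases and the median length of GENCODE transcripts matched to RefSeq, the median gene tested rested on about 438 and 353 fragments. The intervals assume that reading. GC content and length covered 97.2% of genes tested.

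Members and lists were chosen with earlier results of these data known. The text names every member, and of each other list up to 4 genes per direction past the threshold at 5 FPKM or more; genes named outside that rule were chosen after their values were seen. One gene that the rule names is not reported here. Calls were tested on simulated data. Python 3.11.15, pandas 2.3.3, scipy 1.17.1 and statsmodels 0.14.6 were used. Alternatives were other pseudocounts, filters, scalings and call folds, and removal of GC and length trends (lowess span 0.3).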

Additional observations from a re-analysis of the deposited data

How the results depend on the processing

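The median relative log2 ratio of the members was above 0 under all 10 alternatives to its calculation. It was 0.075 and 0.118 with pseudocounts of 0.1 and 5, 0.10 with no filter and with a filter at 5 FPKM, and 0.21 with ratios as deposited. It was 0.26 with equal column sums, 0.073 with the same upper quartile and 0.045 with the GC trend removed. Counts follow with, in parentheses, the share of all genes past the same threshold in that direction and setting. The count of higher members was 6 (7.49%); it was 14 with ratios as deposited (18.3%), 14 with no filter on low values (5.35%), 17 with equal sums (23.5%), 3 with the GC trend removed (8.19%) and 0 at 1.5-fold (1.23%). The count of lower members was 6 (13.9%); it was 3 with ratios as deposited (8.26%), 3 with no filter (2.60%), 1 with equal sums (6.73%) and 1 at 1.5-fold (4.23%). With ratios as deposited and with equal sums, the median of all genes stood at 0.12 and 0.16, not at 0, and without a filter the median subtracted was 0. The shares without a filter are over all 34714 genes. Of these, 25123 were below 1 FPKM in both libraries, against 7 of the 48 members, so they are no like comparison. The same ratios over the 9591 genes tested give the 18.3% and 8.26% of the setting as deposited. Of the 12 genes past the threshold, 3 stayed past 0.32 in the same direction under all 10 alternatives to the calculation (Atp6v0a1 is also the one past 1.5-fold): Atp6v0a1, Atp6v0c and Atp6v1e1. For 8 of the 41 genes, all within the threshold, the sign of the ratio differed under at least 1 alternative; they are Atp6v0a2, Atp6v0e, Atp6v1f, Atp6v1g2, Ctsh, Gla, Ifi30 and Lgmn. The rule found 0 members named as pseudogenes, so leaving them out altered nothing and is no further check. No filter and ratios as deposited gave each of the 41 genes the same value, since the shift subtracted was 0 in both. The 10 alternatives are thus fewer than 10 separate checks of a gene. No paired analysis was possible because each group has 1 library. Counting error is small for most members, and the spread between cultures is unknown.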

Other observations

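A split by level was chosen after the values were seen. The 12 lysosomal genes above 500 FPKM had a median relative log2 ratio of -0.14, and 8 of them lay below the median of all genes. Over all 175 genes above 500 FPKM the median was -0.21, with 121 below. The 29 lysosomal genes from 1 to 500 FPKM had a median of 0.14, and 18 of them lay above the median of all genes, beside 0.00 over the 9416 genes of that range. Ctss, Atp6v0c, Ctsb and Lamp1 are the 4 genes above 500 FPKM with a relative log2 ratio above 0, at 0.35, 0.38, 0.13 and 0.31.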
